A study of Rattus norvegicus with 4 samples.

Results

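The retinoid X receptors and the nuclear receptors that pair with them were examined in CG4 cells, a rat line of oligodendrocyte progenitors that can be driven to form myelin-making oligodendrocytes. The members were 10 genes chosen by name: Rxra, Rxrb and Rxrg (retinoid X receptors), Rara, Rarb and Rarg (retinoic acid receptors), Thra and Thrb (thyroid hormone receptors), Vdr (the vitamin D receptor) and Ppard (a fatty acid receptor of the PPAR family). Of these, 9 were among the 14410 genes of the deposited table, and all 9 passed the filter on low values that left 14368 genes. Rarb was not analysed here. The study compared a ctrl group carrying a CAG-IRES-GFP retrovirus with a Phf8oe group carrying CAG-Phf8-IRES-GFP, which adds Phf8, a histone lysine demethylase. Both groups had a WT background, were sorted as GFP+ cells, expanded, and held for 3 days in a SATO-based differentiation medium. RNA-seq was done on 2 replicates per group, all of the same cell line. Whether the medium held thyroid hormone or retinoids is not stated in the labels. The labels call the samples biological replicates without saying whether they came from separate transductions, so p-values measure only the spread between these preparations.

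Retinoid X receptors are the common partners of this family. They form heterodimers with retinoic acid, thyroid hormone, vitamin D and PPAR receptors, and each pair binds DNA at repeated copies of a 6-base motif and switches between corepressors and coactivators when ligand binds. In the oligodendrocyte lineage, thyroid hormone and retinoic acid are known to help time the exit from division and the start of differentiation, and Rxrg is known as a receptor that promotes remyelination.

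The motif is shown by the member Rarb, whose own promoter carries a retinoic acid response element, a direct repeat of the motif with a spacer of 5 bases (DR5). The 27 bases below are from RefSeq, build GRCr8, plus strand, chr15:11336411-11336437, with the paired motifs in capitals.
Rarb DR5: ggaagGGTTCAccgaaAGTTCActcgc
The search covered both strands of 300-base promoter windows, from 250 bases before to 50 bases after each annotated start, and took direct repeats with spacers of 1, 3, 4 or 5 bases by name (DR1, DR3, DR4 and DR5), allowing A or G as the first and G or T as the third base of each motif. A DR5 occurred in 1 of the 11 windows found for 9 of the 10 members and in 0.382% of 33469 windows of all genes. It is the Rarb repeat shown, which begins 24 bases after the annotated start. No DR1, DR3 or DR4 was found in the members' windows. These occurred in 0.233%, 0.0986% and 0.0807% of all windows. The single motif AGGTCA, which can lie inside such a repeat, occurred in 1 window of a member, Rarg, and in 16.2% of all windows. Ppard had no window in the table used.

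The retinoid X receptor promoters also differ in CpG content, shown here for the member with the largest fold change of the 9 and for its relative Rxra. The 93 bases before the earliest annotated start of each are given from RefSeq, build GRCr8, plus strand, with CpG dinucleotides in capitals. They lie at chr13:82276237-82276329 for Rxrg and chr3:31387799-31387891 for Rxra.
Rxrg: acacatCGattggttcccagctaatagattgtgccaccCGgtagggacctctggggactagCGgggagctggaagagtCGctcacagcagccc
Rxra: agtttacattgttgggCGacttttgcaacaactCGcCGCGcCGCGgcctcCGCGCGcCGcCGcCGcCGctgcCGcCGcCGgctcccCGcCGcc
The Rxrg stretch held 4 CpGs and the Rxra stretch 18. Over the full 300-base windows the counts were 21 for Rxrg, 41 for Rxrb and 62 for Rxra, against a median of 7 over all windows. The Rxrg window was set on a later annotated start and begins with the stretch shown. For Rxra the stretch and the window use the same start. The most CpG-rich window of each of the 9 members lay above that median, the lowest being Rarg with 14 and Vdr with 16. No chromatin or binding data were used here, so whether Phf8 acts at any of these sequences was not tested.

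Of the 9 receptor genes, Rxrg and Ppard fell in Phf8oe, none rose, and 7 did not pass the test. The test was limma on log2(value + 1), with Benjamini-Hochberg adjustment over all tested genes and a threshold of 0.05. Over all genes 7.64% were called, with 4.65% lower and 2.99% higher. The groups did not overlap in 7 of the 9 receptor genes, 6 lower and 1 higher in Phf8oe, against 57.6% of all genes, 28.7% lower and 28.9% higher. An unadjusted p under 0.05 was reached by 5 of the 9 and by 26.3% of all genes. The median log2 fold change was -0.30 over the 9 receptors and 0.0031 over all tested genes. All values below are the authors' normalized counts, which are not scaled by gene length, so levels are compared between libraries and not between genes.

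**Figure D1:**
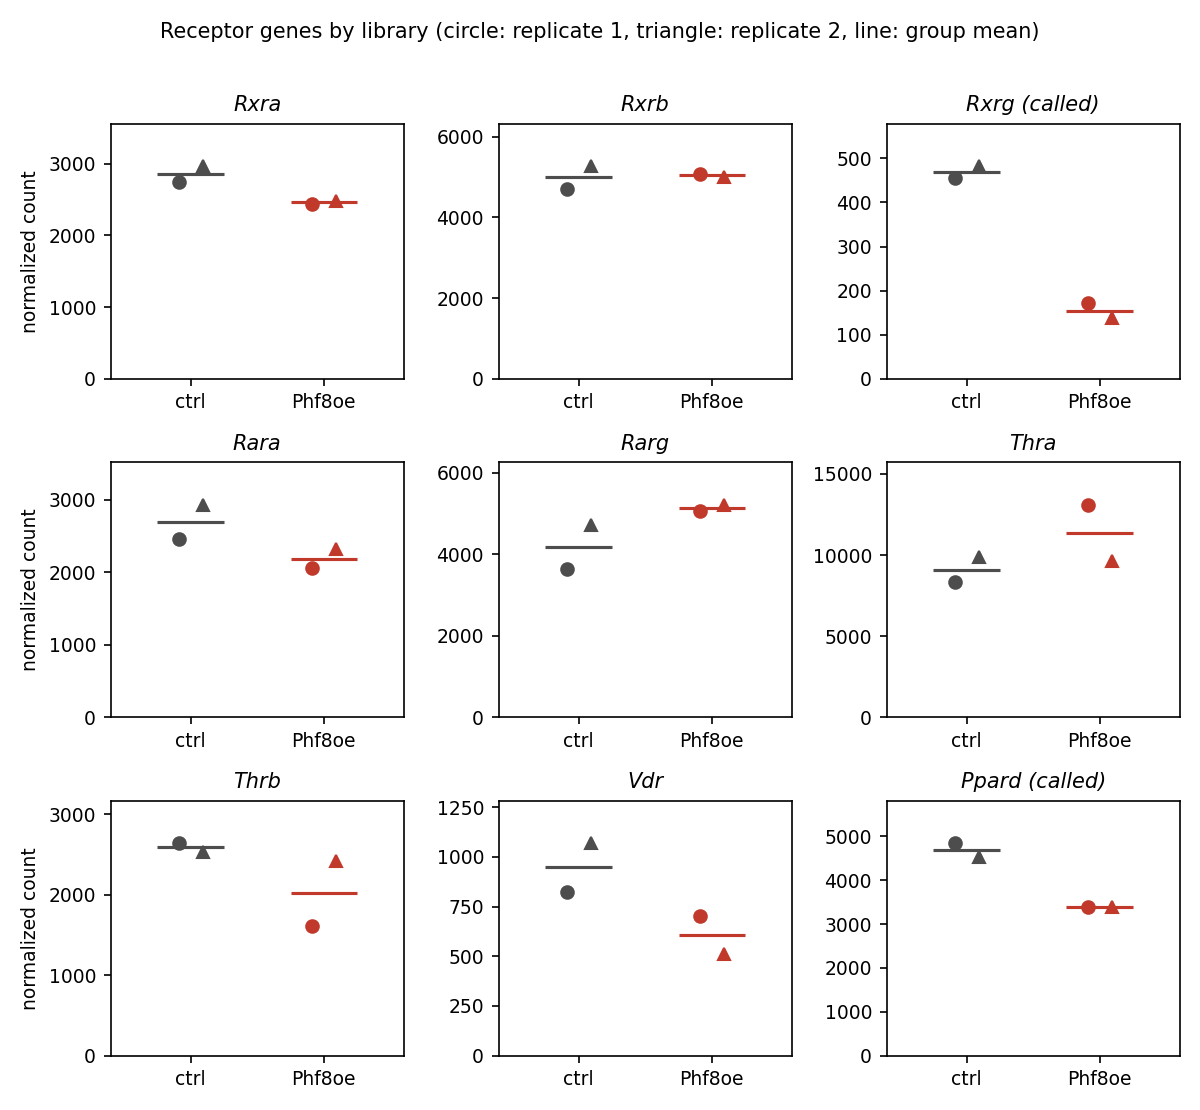
Normalized count (vertical axis, from 0) of each of the 9 receptor genes in the 2 ctrl and 2 Phf8oe libraries; circles are replicate 1, triangles replicate 2 and lines the group means. Rxrg lies at 455 and 482 in ctrl against 171 and 139 in Phf8oe, and Ppard at 4847 and 4531 against 3401 and 3397.

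Among the common partners, the 3 retinoid X receptors did not move alike. Rxrg had normalized counts of 455 and 482 in ctrl replicates 1 and 2 and of 171 and 139 in Phf8oe replicates 1 and 2. Both Phf8oe libraries lay far below both ctrl libraries, and the gap was many times the distance between replicates. The log2 fold change was -1.60 (SE 0.19, 95% interval -2.02 to -1.18, n = 2 per group, limma adjusted p = 0.00318), a 3.02-fold fall. Of 14368 genes, 151 had a lower fold change, and by p Rxrg ranked 53. About 539, 474, 179 and 98 reads lay behind these values in the same order, estimated from the spacing of the values. Counting error alone gave 95% Poisson intervals of 418 to 495 and 440 to 528 in ctrl and of 147 to 198 and 113 to 169 in Phf8oe, and these did not overlap between groups. The call was lost without ctrl replicate 1 (-1.64 on the log2 scale, adjusted p = 0.0986) or ctrl replicate 2 (-1.56, adjusted p = 0.0524), fits in which the spread comes from the Phf8oe pair alone. It was also lost with no variance trend (adjusted p = 0.0923), a setting that left no call among all genes, and in a test against a 1.5-fold change (adjusted p = 0.0614). It was kept without Phf8oe replicate 1, at -1.75 (adjusted p = 1.41e-05), and without Phf8oe replicate 2, at -1.45 (adjusted p = 6.08e-05).

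Rxra, the broadly expressed retinoid X receptor, stood at 2752 and 2964 in ctrl and at 2436 and 2486 in Phf8oe. Its groups did not overlap, but the difference did not pass (-0.21 ± 0.10 SE on the log2 scale, limma adjusted p = 0.212). Rxrb stood at 4717 and 5267 against 5073 and 5009, so both Phf8oe libraries lay between the ctrl libraries. Its log2 fold change was 0.016 with a 95% interval of -0.21 to 0.25, an interval that reaches no further than a 1.19-fold change in either direction. Rxrb overlaps the zinc transporter gene Slc39a7 in the GRCr8 annotation, and Slc39a7 had a log2 fold change of -0.10 (limma adjusted p = 0.607).

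The shift within the family can be read as the ratio of deposited values in each library, which carries the lengths of both genes and is only compared between libraries. Rxrg over Rxra was 0.165 and 0.163 in ctrl and 0.0702 and 0.0559 in Phf8oe. Rxrg over Rxrb was 0.0965 and 0.0915 in ctrl and 0.0337 and 0.0278 in Phf8oe. Both ratios were lower in 2 of 2 Phf8oe libraries, with mean log2 differences of -1.38 and -1.61. For these and 2 further ratios given below, the two-sided exact permutation test gave p = 0.333 each, also 0.333 after Benjamini-Hochberg adjustment over the 4, which is the smallest p that 2 libraries against 2 allow.

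**Figure D2:**
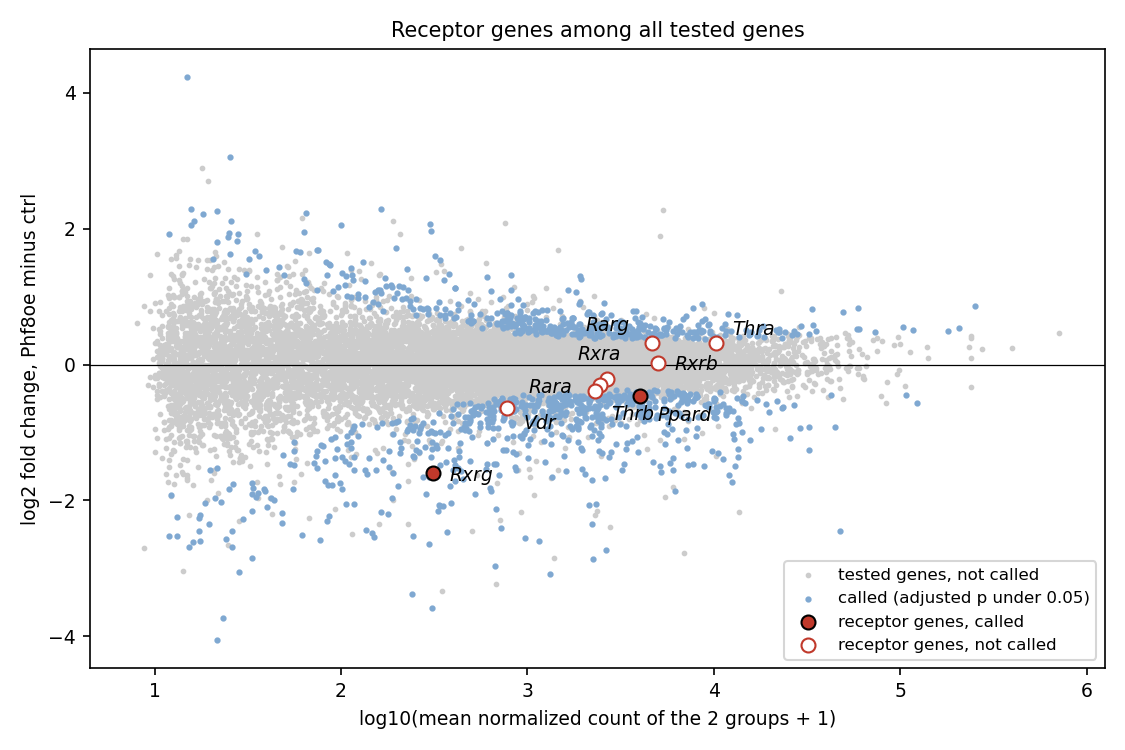
Log2 fold change of Phf8oe minus ctrl (vertical axis) against the log10 mean normalized count (horizontal axis) for all 14368 tested genes, with the 9 receptor genes as large circles, filled where called. Rxrg at -1.60 lies well below the other receptors, and Ppard at -0.46 is the other filled circle.

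Ppard, a sensor of fatty acids and the PPAR best known in oligodendrocytes, was the other receptor that fell. The ctrl libraries held 4847 and 4531 normalized counts, the Phf8oe libraries 3401 and 3397. The Phf8oe libraries were nearly equal and both lay below the ctrl libraries. The log2 fold change was -0.46 (SE 0.10, 95% interval -0.68 to -0.24, n = 2 per group, limma adjusted p = 0.0262), a 1.38-fold fall. The call was lost without either ctrl library, replicate 1 (-0.41 on the log2 scale, adjusted p = 0.305) or replicate 2 (-0.51, adjusted p = 0.122). It was also lost with no variance trend (adjusted p = 0.15) and in a test against a 1.5-fold change (adjusted p = 1). It was kept without Phf8oe replicate 1 and without Phf8oe replicate 2, at -0.46 on the log2 scale in both fits.

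Vdr, the receptor of the active form of vitamin D, had 824 and 1069 in ctrl and 704 and 513 in Phf8oe. Both Phf8oe libraries were lower, but the spread within each group was wide and the difference missed the threshold (log2 fold change -0.64, SE 0.19, 95% interval -1.09 to -0.19, limma adjusted p = 0.0834). Without Phf8oe replicate 1 it passed, at a log2 fold change of -0.87 (adjusted p = 0.0039), and without Phf8oe replicate 2 it stood at -0.41.

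The retinoic acid receptors stood on opposite sides of no change. Rara went from 2460 and 2934 to 2065 and 2318 (-0.30 ± 0.12 SE on the log2 scale, limma adjusted p = 0.162). Without ctrl replicate 1 its log2 fold change was -0.42, and without ctrl replicate 2 it was -0.17. Rarg stood at 3629 and 4715 in ctrl and at 5061 and 5219 in Phf8oe (0.31 ± 0.13 SE on the log2 scale, limma adjusted p = 0.171). Neither pair of groups overlapped and neither difference passed. Without ctrl replicate 1 the log2 fold change of Rarg was 0.12, and without ctrl replicate 2 it was 0.50. The ratio of Rarg over Rara was 1.48 and 1.61 in ctrl and 2.45 and 2.25 in Phf8oe, higher in 2 of 2 Phf8oe libraries with a mean log2 difference of 0.61 (exact permutation p = 0.333).

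The differences of the thyroid hormone receptors rested on a single library. Thra stood at 8322 and 9853 in ctrl and at 13102 and 9623 in Phf8oe (0.31 ± 0.16 SE on the log2 scale, limma adjusted p = 0.274). Thrb stood at 2642 and 2536 against 1612 and 2423 (-0.39 ± 0.19 SE on the log2 scale, limma adjusted p = 0.248). Phf8oe replicate 1 was the highest library for Thra and the lowest for Thrb, whereas Phf8oe replicate 2 lay between the ctrl libraries for Thra and close under them for Thrb. The ratio of Thra over Thrb was accordingly 3.15 and 3.89 in ctrl, 8.13 in Phf8oe replicate 1 and 3.97 in Phf8oe replicate 2. Without Phf8oe replicate 2 both differences passed, Thra at 0.53 (adjusted p = 0.00908) and Thrb at -0.68 (adjusted p = 0.000944). Without Phf8oe replicate 1 they were 0.088 and -0.095.

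Thra overlaps Nr1d1 and Med24 in the GRCr8 annotation, and no label says whether strand was used in counting. Reads from the shared ends may therefore not be separable. Nr1d1, a clock repressor of the same receptor superfamily, had 1841 and 2162 in ctrl against 1561 and 1720 in Phf8oe (-0.28 on the log2 scale, limma adjusted p = 0.173). Med24, a Mediator subunit, had a log2 fold change of 0.25 (limma adjusted p = 0.178).

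**Figure D3:**
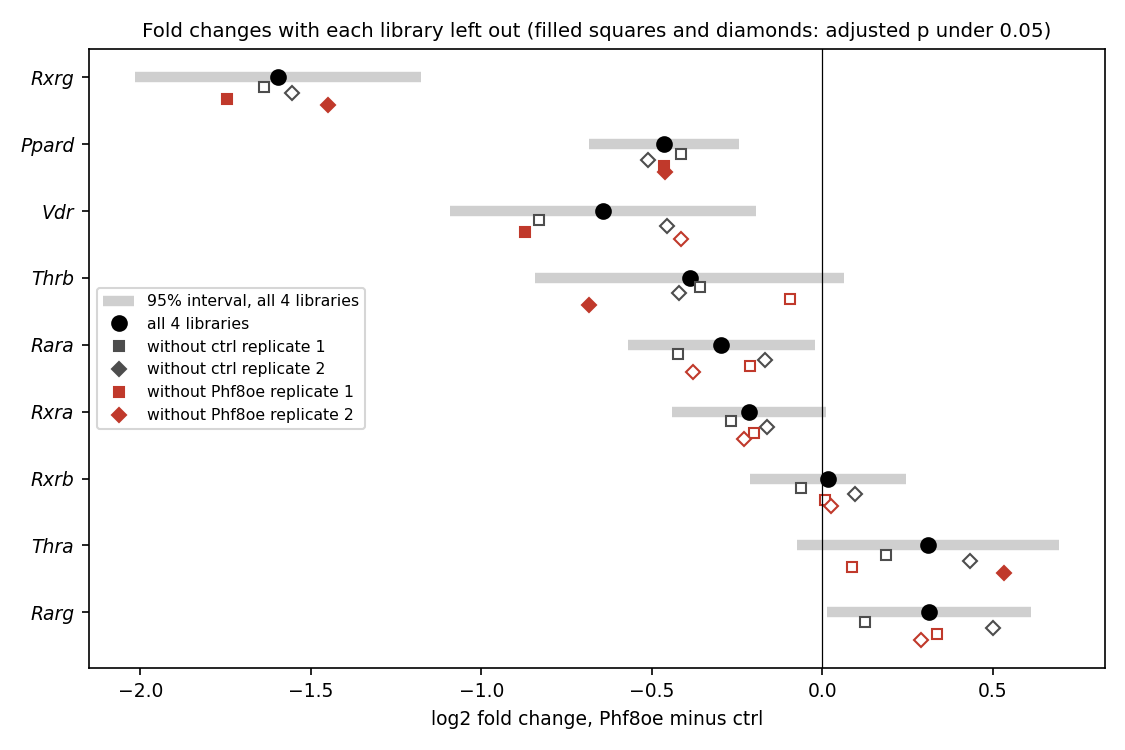
Log2 fold change of each receptor gene (horizontal axis) with all 4 libraries (black circle, grey bar for the 95% interval) and with each library left out (squares and diamonds, filled where the limma adjusted p was under 0.05). Rxrg stays between -1.75 and -1.45, whereas Thrb ranges from -0.68 to -0.095 and Thra from 0.088 to 0.53.

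The transduced gene and the marker lists were read beside these falls. Phf8 stood at 2026 and 2205 in ctrl against 5650 and 10796 in Phf8oe (1.89 on the log2 scale, limma adjusted p = 0.0631), both Phf8oe libraries above ctrl and replicate 2 the highest, but the test was missed. Estimated reads per library ranged from 28400000 to 47800000. All 11 oligodendrocyte markers had a row, so the defining markers of the labelled lineage were present, and 4 of the 11 rose and none fell. They summed to 489980 and 484395 normalized counts in ctrl against 750243 and 688152 in Phf8oe. Without Mbp, the most abundant, the other oligodendrocyte markers summed to 305538 and 311057 against 409757 and 379277. The 5 progenitor markers summed to 74197 and 74467 against 56236 and 46908, with 2 called, both lower. The 6 of 7 astrocyte markers with a row summed to 92430 and 93079 against 22086 and 32268, of which Gfap made up 79141 and 80736 against 10834 and 19613. Without Gfap the other astrocyte markers summed to 13289 and 12343 against 11252 and 12655. Of the 6, Gfap fell, Aldh1l1 and Slc1a3 rose, and 3 did not pass. The 6 of 7 neuronal markers with a row summed to 21322 and 18222 against 13944 and 13150, with 1 called, Nefm, which fell. The part of these marker levels in the falls of Rxrg and Ppard was not tested, and in bulk RNA fewer cells of a type cannot be told apart from less RNA per cell. The 5 Schwann cell markers summed to 5051 and 4862 against 5137 and 5655, with 1 called, Egr2, which fell. Of 7 microglial and 6 fibroblast or pericyte markers, 3 and 1 had a row, the fibroblast marker Col1a1 falling from 454 and 437 to 121 and 164. The microglial markers summed to 307 and 197 against 204 and 273. No marker with a row was at 0 in all libraries. The marker calls stand beside 2.99% of all genes called higher and 4.65% called lower.

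The profiles most like that of Rxrg were sought among 12275 other genes with a mean of at least 50, by the distance between log2(value + 1) profiles over the 4 libraries, each centred on its mean. The nearest were Sv2c (distance 0.127), which encodes a synaptic vesicle glycoprotein, Slit3 (0.194), which encodes an axon guidance ligand, and Reln (0.214), which encodes the extracellular protein reelin, against a median distance of 1.63. Sv2c had 699 and 682 in ctrl and 235 and 193 in Phf8oe. With 4 libraries this likeness reflects mainly the difference between the groups and its size.

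Rxrg and Ppard were not alone among nuclear receptors. Of 48 nuclear receptor genes named in all, 29 were tested, 5 fell, none rose and 24 did not pass, against 4.65% of all genes called lower. The 5 include Rxrg and Ppard themselves. Among nuclear receptors outside the members and the other partners of retinoid X receptors, 3 of 15 tested fell. None of the 5 calls was left with no variance trend, against a 1.5-fold change or without either ctrl library. The median log2 fold change was -0.17. Rorb, an orphan receptor of the ROR family, fell 2.76-fold, from 167 and 154 to 56 and 59 (-1.46 ± 0.23 SE on the log2 scale, limma adjusted p = 0.00973). Its relative Rora fell 1.98-fold, from 128 and 173 to 74 and 75, and Nr2c2, the orphan receptor TR4 that binds direct repeats, fell 1.51-fold, from 970 and 899 to 648 and 588. The other partners of retinoid X receptors gave no call in limma among 5 tested of 9 (1 at an unadjusted p under 0.05, none with limma-voom). Of these, Nr1h2, the oxysterol receptor LXR beta, had a log2 fold change of -0.28 (limma adjusted p = 0.108), and Nr4a1, an immediate early orphan receptor, of -0.057. None of 18 tested corepressors and coactivators passed in limma, with 4 at an unadjusted p under 0.05, a share close to the 26.3% of all genes, and 1 with limma-voom. Among the abundant ones, the arginine methyltransferase gene Prmt1 had a log2 fold change of 0.23.

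Genes that supply retinoids to the receptors gave 1 call among 15 tested of 24, against 7.64% called of all genes. Rlbp1, a retinaldehyde-binding protein, rose 1.66-fold, from 2002 and 2198 to 3304 and 3687 (0.73 ± 0.11 SE on the log2 scale, limma adjusted p = 0.00786). Aldh1a3, an enzyme that makes retinoic acid, had the lowest fold change of the list and was picked after its values were seen. It stood at 1273 and 1094 in ctrl and at 54 and 286 in Phf8oe (-3.23 ± 1.00 SE on the log2 scale, limma adjusted p = 0.191). Both Phf8oe libraries were far below ctrl, but they differed from each other so widely that the test was missed. Of 26 retinoic acid target genes, 11 were tested and none passed in limma, none at an unadjusted p under 0.05 and none with limma-voom. In this list Cyp26b1, which degrades retinoic acid, stood at 2047 and 2852 in ctrl against 1900 and 2399 in Phf8oe, with groups that overlapped.

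Genes that set the supply of thyroid hormone gave 2 calls among 8 tested of 10, against 7.64% called of all genes. Slc16a10, a transporter of aromatic amino acids and thyroid hormone, rose 3.02-fold, from 18 and 16 to 59 and 48 (limma adjusted p = 0.026). Dio3, the deiodinase that inactivates thyroid hormone, fell from 19 and 37 to 4 and 6 (-2.22 on the log2 scale, limma adjusted p = 0.0306). Both genes are low, and neither passed the stricter filter of at least 50 in both libraries of a group. Of 10 genes known to respond to thyroid hormone, 9 were tested, 2 rose and 1 fell. Among all genes 2.99% were called higher and 4.65% lower. Mbp, a major myelin protein, rose from 184442 and 173338 to 340486 and 308875, and Nrgn, a calmodulin-binding protein of neurons, from 9 and 12 to 32 and 55. Nrgn is low too and did not pass the stricter filter either. Me1, malic enzyme, which supplies NADPH for lipid synthesis, fell 1.63-fold, from 12912 and 16063 to 8602 and 9024 (limma adjusted p = 0.0133). Genes of this list thus went both ways, with a median log2 fold change of -0.071.

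**Figure D4:**
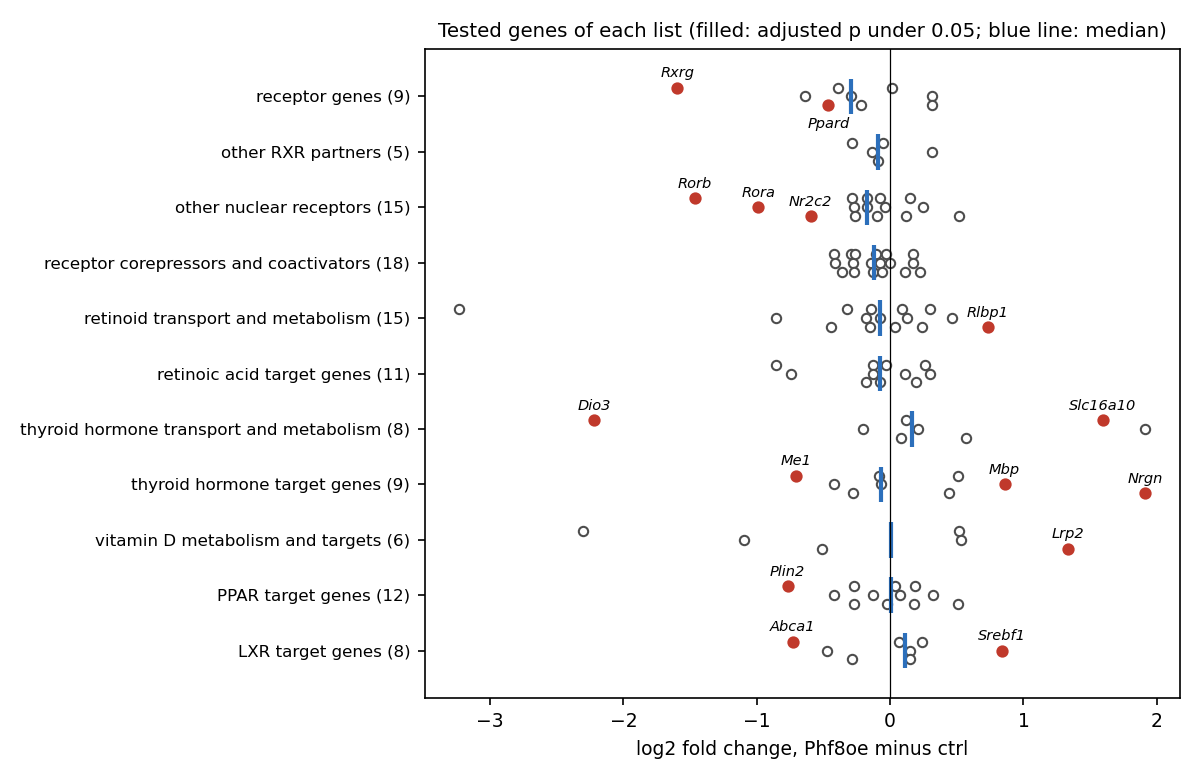
Log2 fold change (horizontal axis) of every tested gene in the receptor set and in each of 10 related lists (rows, with the number tested), filled and named where the limma adjusted p was under 0.05, with the median as a blue line. The 5 nuclear receptors that were called all lie on the lower side, and the thyroid hormone and LXR lists hold calls on both sides.

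In the vitamin D list, 1 of 6 tested genes rose, against 2.99% of all genes called higher. Lrp2, the endocytic receptor megalin that takes up vitamin D carrier protein, rose from 176 and 258 to 577 and 501 (1.33 ± 0.21 SE on the log2 scale, limma adjusted p = 0.00955). In the PPAR list, 1 of 12 tested genes fell, against 4.65% of all genes called lower. Plin2, a coat protein of lipid droplets, fell from 12332 and 12940 to 6220 and 8834 (-0.77 ± 0.16 SE on the log2 scale, limma adjusted p = 0.0364). In the LXR list, 2 of 8 passed in opposite directions, against 7.64% called of all genes. Abca1, a cholesterol exporter, fell from 5455 and 4262 to 2558 and 3299 (limma adjusted p = 0.0423), and Srebf1, a regulator of lipid synthesis, rose from 191 and 273 to 396 and 423 (limma adjusted p = 0.0411). Srebf1 overlaps Rai1 in the GRCr8 annotation. Over the 10 lists 101 genes were tested, each counted once, of which 6 rose and 7 fell, against 2.99% higher and 4.65% lower among all genes. None of these 13 calls was left without ctrl replicate 1 and 1, Lrp2, without ctrl replicate 2. Without Phf8oe replicate 1 all 13 were left, and without Phf8oe replicate 2 the call of Nrgn was lost (adjusted p = 0.0555). The direction of the 13 genes was the same in each of these 4 fits. Leaving out either Phf8oe library added calls among the retinoid supply genes, the retinoic acid targets and the corepressors and coactivators. With all libraries neither the retinoic acid targets nor the corepressors and coactivators held a call. Without Phf8oe replicate 2, calls were also added in the vitamin D, PPAR and LXR lists, among the other nuclear receptors and in both thyroid hormone lists.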

How the data were processed

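Values are deposited as a signal, namely counts that the authors had scaled per library and rounded, whatever the word raw in the file label says. The evidence is in the numbers themselves. Scaled and rounded reads skip or repeat certain whole numbers, and these put the value of 1 read at 0.8445 and 1.0176 in the ctrl libraries and at 0.9548 and 1.4159 in the Phf8oe libraries (replicates 1 and 2). Deposited totals ran to 40336248 and 39945215 (ctrl), 41149255 and 40260658 (Phf8oe). The submitters' processing notes list bcl2fastq (2.20), Trimmomatic (0.36), STAR (2.5.2b), DESeq2, rn6 and Rnor_6.0. The counter and the annotation are not stated there. Each sample file matched its column for all 14410 genes.

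A gene entered the test when 2 or more libraries reached 10, which left 14368. They were fitted with limma 3.58.1 (R 4.3.3) on log2(value + 1), which understates changes of low genes. Group was the only term, with a variance trend and robust moderation, giving 2 residual degrees of freedom and 6.99 prior ones (median). Intervals are 95% limma intervals, and Poisson intervals cover counting error only. The procedure was checked on 5 simulated sets with 200 changed genes each, against 1098 genes called in these data. It called 96.7% of 4-fold and 80.5% of 2-fold changes, and 5.93% of its calls were false. Smaller changes, such as that of Ppard, and changes in the genes with the lowest means were not simulated. The members, lists and rules were chosen with earlier results of these data known. Named were all members, Phf8, genes overlapping a member, the 3 profiles nearest to Rxrg and, per list, up to 4 called genes with the smallest p or else the 2 most abundant. Some genes that this rule takes are not reported here. Alternatives covered moderation, pseudocount, filter, scaling, limma-voom on estimated reads, a replicate block, a 1.5-fold test threshold and leaving out each library. Gene overlaps and promoters are from RefSeq GRCr8, not the build of the counts, so other positions are not given. Software also included Python 3.11.15 with numpy 2.4.6, pandas 2.3.3, scipy 1.17.1 and matplotlib 3.10.9.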

Additional observations from a re-analysis of the deposited data

How the results depend on the processing

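The 16 alternatives include a crossed pairing of replicate numbers that was chosen after seeing the data. Rxrg kept its direction in all 16 and passed the threshold in 12, the crossed pairing among them. It missed it with no variance trend (log2 fold change -1.60, adjusted p = 0.0923), against a 1.5-fold change (-1.60, adjusted p = 0.0614) and without either ctrl library (range over the libraries left out -1.75 to -1.45, highest adjusted p = 0.0986). Ppard passed in 11 of 16, also counting the crossed pairing, and missed the threshold with the replicate block (0.0771). Its limma adjusted p ran from 0.00707, in the crossed pairing, to 1. The number of receptor genes called was 2 in the main analysis, 0 with no variance trend, 0 against a 1.5-fold change, 1 with the replicate block, and 0 to 4 with a library left out. Among all nuclear receptors named, 5 were called, against 2 with the replicate block. Over all genes the count was 1098, against 0 with no variance trend, 27 against a 1.5-fold change, 373 with the replicate block and 14 to 2103 with a library left out. Upper quartile scaling turned the split from 430 higher and 668 lower to 614 higher and 598 lower. Rxrb changed sign with total scaling (-0.0038) and without ctrl replicate 1 (range with a library left out -0.063 to 0.096). No label says whether replicate numbers pair the samples. The correlation of same-numbered deviations over genes was -0.126, which cannot decide how the samples were prepared. Crossed pairing, chosen after seeing the data, gave 2354 calls over all genes and 3 among the receptors. Among the other lists, the counts moved most often for retinoid supply and LXR targets, in 7 of 16 alternatives each. The causes were not tested. With 2 libraries per group, differences of the size seen for Rara, Rarg, Thra and Thrb could not be told from the spread between replicates.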
